A study of Mus musculus with 6 samples.

Results

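The genes described here are 45 genes whose products assemble at replication origins and copy DNA at the fork. They were taken by gene name from a deposited table of 30768 genes, in which each of the 45 has 1 row. The study used bEnd.3, an endothelial cell line from mouse brain, and compared cells that received a control mimic with cells that received a miR-423-5p mimic, which the labels describe as overexpressing that microRNA. Mimics are synthetic RNAs made to act like a mature microRNA. Each group has 3 libraries of polyadenylated RNA. No label gives the dose, the time after transfection or whether libraries came from separate cultures, so p-values measure only the spread between these libraries, which may be technical.

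DNA replication begins with licensing. In G1 the origin recognition complex (ORC), Cdc6 and Cdt1 load the ring of Mcm2 to Mcm7 onto DNA, and geminin (Gmnn) holds Cdt1 in check later in the cycle. In S phase Cdc45 and the GINS complex join the ring to form the active helicase, primase and polymerase alpha lay down primers, and polymerases delta and epsilon extend them on the sliding clamp PCNA. Many of these genes are known targets of E2F transcription factors, and their messenger RNAs rise as cells enter S phase.

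miR-423-5p itself, encoded at chr11:77078122-77078144 on the minus strand (GRCm38, RefSeq), is shown first because its seed, bases 2 to 8 in capitals, is what pairs with target transcripts.

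mmu-miR-423-5p: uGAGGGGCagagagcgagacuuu

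The 7-letter complement of that seed is GCCCCTC, and GCCCCTCA is the 8-letter form. Of the 45 genes, 4 hold a match in their longest annotated 3' UTR, or 8.89%, against 14.6% of 13919 tested genes with a 3' UTR. The median 3' UTR is shorter in the replication genes (568 bases) than over those tested genes (1301 bases), and length was not matched. The matches are shown with the seed match in capitals, as DNA on the transcript strand, because the whole seed could pair there. Shorter matches and other parts of the transcripts were not searched.

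Cdc6, bases 1849 to 1855 of its 3' UTR: gaattttcatctgaGCCCCTCtttctagg
Gins2, bases 2106 to 2113: gcaggcagccctagGCCCCTCAgccctgc
Pola2, bases 68 to 74: tcaactcctagataGCCCCTCcatgtggg
Rpa1, bases 126 to 132: ggcaacccatctggGCCCCTCttgggact
Rpa1, bases 1175 to 1181: acaccgatgatctgGCCCCTCggggttgg

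Of these genes 1, Cdc6, was called lower. The median log2 fold change was -0.20 in the 4 genes with a match and -0.19 in the replication genes without one. Over all tested genes with a 3' UTR it was -0.10 in the 2036 with a match and 0.00 in those without. These differences were not tested.

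All 45 genes passed the filter on low counts, with at least 870 counts in every library. Total counts ran from 63217696 to 78456344 per library. Levels of 1 gene are given as CPM, read counts scaled to library size with TMM factors. FPKM, the authors' value scaled for gene length, is used to compare levels between genes. The FPKM values are not TMM-scaled and fall by more between the groups than CPM. Endothelial markers were present, with Pecam1 at 515 ± 42.5 and Cdh5 at 786 ± 27.5 CPM in the controls (SD, n = 3). The tight junction gene Cldn5 was at 0.16 CPM there.

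Control 3 stood apart through genes of other cell types. In that library the macrophage gene Adgre1 reached 25.1 CPM, while no other library exceeded 0.059 CPM. The neuronal gene Tubb3 reached 24.5 CPM there and stayed under or at 0.554 CPM elsewhere. Of 10 fibroblast and pericyte markers, 9 were tested, 5 fell and none rose, and their summed FPKM was 9.83 to 21.7 in the controls and 2.09 to 2.78 in the miR-423-5p libraries. Of 10 endothelial markers 8 rose and none fell, with summed FPKM of 744 to 757 and 1086 to 1230. The summed FPKM in controls and miR-423-5p libraries was 452 to 748 and 516 to 664 for 6 macrophage markers (4 tested, none called), and 12.2 to 28.4 and 30.3 to 39.7 for 5 neuron markers (3 tested, 1 of which rose). Outside control 3 these sums were nearly all Cd68 and Nefl. Nefl, the neuron marker that rose, was at 12.1 ± 0.497 and 33.6 ± 5.05 FPKM (SD, n = 3), while the other tested neuron markers, Tubb3 and Syp, had log2 fold changes of -4.33 and -2.86 (not called; edgeR adjusted p = 0.12 and 0.13), with control 3 as their highest library. The summed FPKM was 2.53 to 3.51 and 2.42 to 2.54 for 4 astrocyte markers (3 tested, 1 of which fell), and 0.271 to 4.96 and 0.228 to 0.402 for 3 epithelial markers (1 tested, not called). Library miR-423-5p 2 also lay apart from its group. Chi-square per degree of freedom on the counts was 101 and 82 between it and miR-423-5p 1 and 3, which differed by 31.5. For control 3 it was 63.5 and 59 against controls 1 and 2, which differed by 18.2. The part of these differences between libraries and groups in the results below was not tested. In such bulk RNA, fewer cells in S phase and less RNA per cell cannot be told apart.

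The comparison asks how the microRNA changed the replication programme of these endothelial cells. Of the 45 genes, 9 fell in the miR-423-5p cells and none rose (edgeR quasi-likelihood test, Benjamini-Hochberg adjusted p under 0.05 over 18103 genes). Those 9 genes are 20% of the list, against 7.21% of all tested genes that fell and 9.09% that rose. They are Cdc6, Orc1, Mcm4, Mcm7, Prim1, Pcna, Fen1, Rpa2 and Rrm2, and their decreases ran from 1.2-fold to 1.48-fold. Besides the 9 genes, 14 others had a log2 fold change below 0 and an unadjusted p under 0.05, and 1, Gins2, had one above 0. Counting both directions, 24 of the 45 had such a p, against 5922 of all 18103 tested genes. DESeq2 and limma on FPKM called none of the 45 higher. Over all genes DESeq2 called 2181 higher, against 1646 in edgeR. Limma called 770 higher on log2(FPKM + 1) and 767 on log2(FPKM + 0.1). As FPKM is not TMM-scaled, the median over all genes in limma was -0.09 and -0.18, so fewer genes could be called higher there.

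Most of the list lay slightly below its control level. The log2 fold change was below 0 in 38 of 45 genes, against 52.4% of all tested genes. The median was -0.19, with the middle of the list between -0.27 and -0.11, against a median of -0.02 over all genes. In 27 of the 45 all 3 miR-423-5p libraries lay below all 3 controls, where 19.6% of all tested genes did so. In 1 gene, Prim2, all 3 lay above, and in the other 17 the groups overlapped.

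The median over the 45 genes of the log2 ratio to the control mean was 0.01, 0.01 and -0.03 for the control libraries. It was -0.15, -0.20 and -0.23 for the miR-423-5p libraries. All 3 miR-423-5p libraries were therefore below the controls. Within a group the spread of single genes was small, with a median coefficient of variation of 5.19% in the controls and 6.54% in the miR-423-5p libraries.

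**Figure D1:**
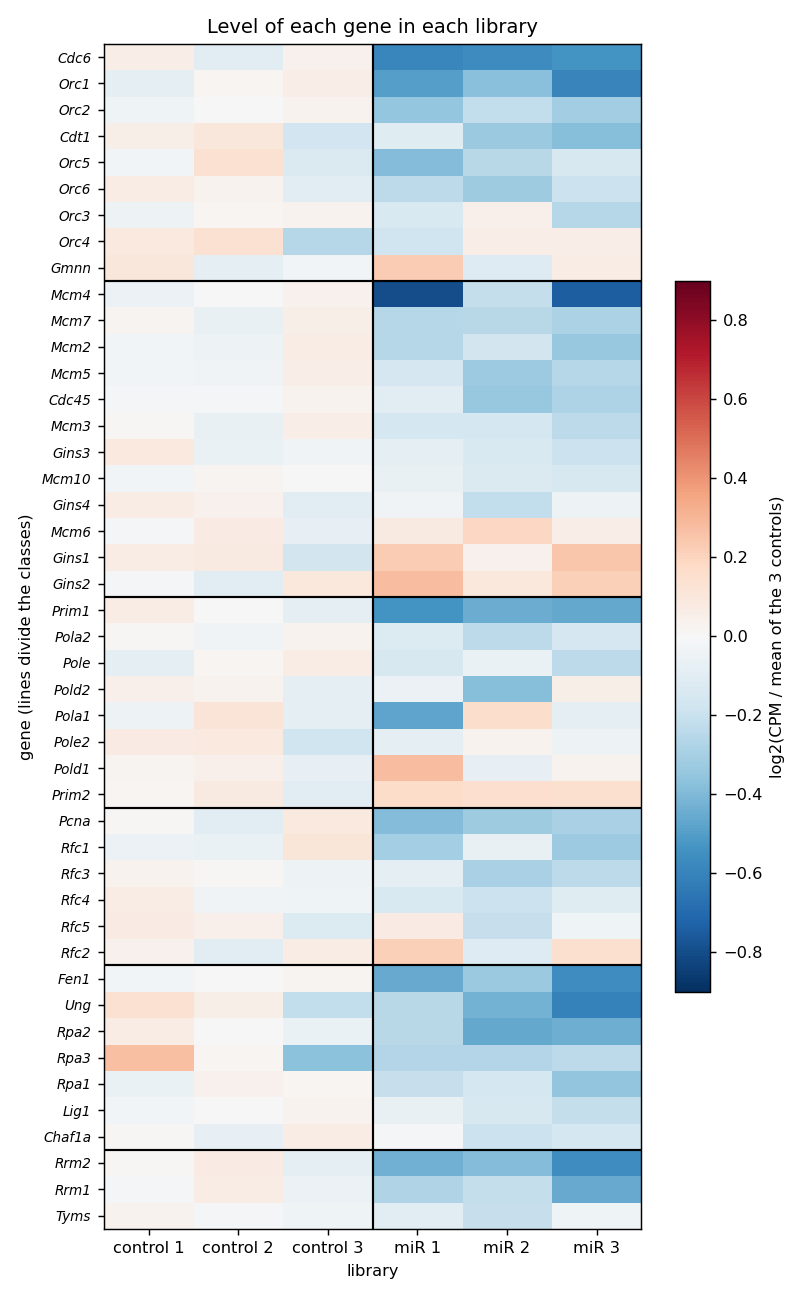
Level of each of the 45 replication genes (rows, grouped by class from licensing at the top to nucleotide supply at the bottom) in each of the 6 libraries (columns), as the log2 ratio of CPM to the mean of the 3 controls. Blue cells fill most of the miR-423-5p columns, while Mcm6, Gins1, Gins2 and Prim2 are red there.

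How many of the 45 genes passed the test depended on the scaling and on single libraries. Under total-count scaling the median over all genes was -0.18 instead of -0.02, and 29 of the 45 fell, against 14.2% of all tested genes. The median of the list moved to -0.34, and its distance from the median of all genes was -0.16 under both scalings. A change of scaling moves all genes by nearly the same amount, so this distance could hardly differ. It was -0.09 with DESeq2 and with no filter on low counts, both over 30768 genes. On log2(FPKM + 1) and log2(FPKM + 0.1) it was -0.27 and -0.18. Changes below are relative to the TMM scaling. Leaving out control 1, 2 or 3 gave 3, 2 or 4 genes that fell, where 2.24%, 1.98% or 4.67% of all tested genes fell. Leaving out the first, the second or the third miR-423-5p library gave 5, 12 or 2, where 3.16%, 9.68% or 2.56% of all tested genes fell. Cdc6 and Prim1 were called lower in all 14 alternatives.

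**Figure D2:**
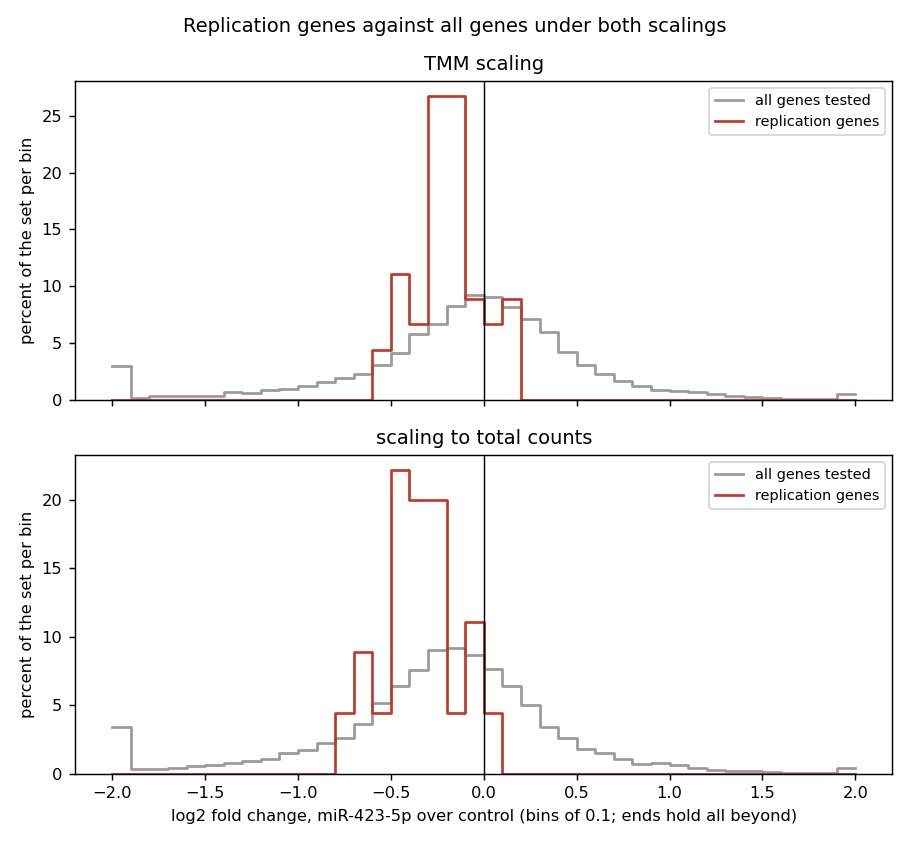
Distribution of log2 fold changes (x axis, miR-423-5p over control) as the percent of each set per bin (y axis), for all tested genes in grey and the 45 replication genes in red, with TMM scaling above and total-count scaling below. Both distributions shift left together below, with medians of -0.18 and -0.34, against -0.02 and -0.19 above.

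The classes hold 3 to 12 genes each, and their counts are to be read against all tested genes. Of those, 7.21% fell and 52.4% had a log2 fold change below 0. In 38.4% the groups did not overlap, in either direction, and in 19.6% the miR-423-5p libraries were the lower ones. Licensing factors had a median log2 fold change of -0.26 over 9 genes, and 2 of them fell. Cdc6, the ATPase that works with ORC to load the helicase ring, lies at chr11:98907801-98923940 on the plus strand (GRCm38, as are all coordinates of the table). It stood at 59.8, 53.3 and 58.8 CPM in the controls (libraries in order, here and below) and at 38.2, 38.7 and 39.4 CPM after the miR-423-5p mimic. The groups were far apart, and the SD of the miR-423-5p libraries was 0.62 CPM (n = 3). The log2 fold change of Cdc6 was -0.56 ± 0.081 (SE; edgeR adjusted p = 0.00472).

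Orc1, the ATPase subunit of ORC whose level changes through the cell cycle in mammalian cells, lies at chr4:108579423-108595580 on the plus strand. It stood at 22.8, 24.4 and 25.1 CPM in the controls and at 17.1, 18.6 and 16 CPM in the miR-423-5p libraries, with no overlap. Its log2 fold change was -0.48 ± 0.11 (SE; edgeR adjusted p = 0.0211). The adjusted p was 0.05 or higher when any 1 library other than miR-423-5p 2 was left out.

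The other ORC subunits were not called. Orc2, Orc5 and Orc6 had log2 fold changes of -0.29, -0.26 and -0.25, each with no overlap between the groups (edgeR adjusted p = 0.0576, 0.151 and 0.0703). Orc3 (-0.11) and Orc4 (-0.01) overlapped, and Orc4 changed sign without control 1, control 2 or miR-423-5p 1. In Orc2, 29.8% of the exonic bases also belong to exons of Nif3l1 on the other strand, and no source used here gives the strand setting of the counting.

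Cdt1, which brings the Mcm ring to ORC, stood at 242, 250.2 and 207 CPM in the controls and at 216, 185 and 179 CPM in the miR-423-5p libraries. These overlap, since control 3 lay below miR-423-5p 1 (log2 fold change -0.27 ± 0.11 SE, edgeR adjusted p = 0.129). Geminin, the Cdt1 inhibitor, was the licensing gene with a positive value. Gmnn stood at 49.8, 43.9 and 45.6 CPM and at 54.3, 42.8 and 48.6 CPM, which overlap widely (log2 fold change 0.07 ± 0.11 SE, edgeR adjusted p = 0.72; -0.09 with total-count scaling).

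The FPKM ratio of Cdt1 to Gmnn was 2.27, 2.66 and 2.12 in the controls and 1.86, 2.01 and 1.71 in the miR-423-5p libraries. This pair and the gene pairs below were chosen after their values were seen, so their ratios are a description with no test.

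**Figure D3:**
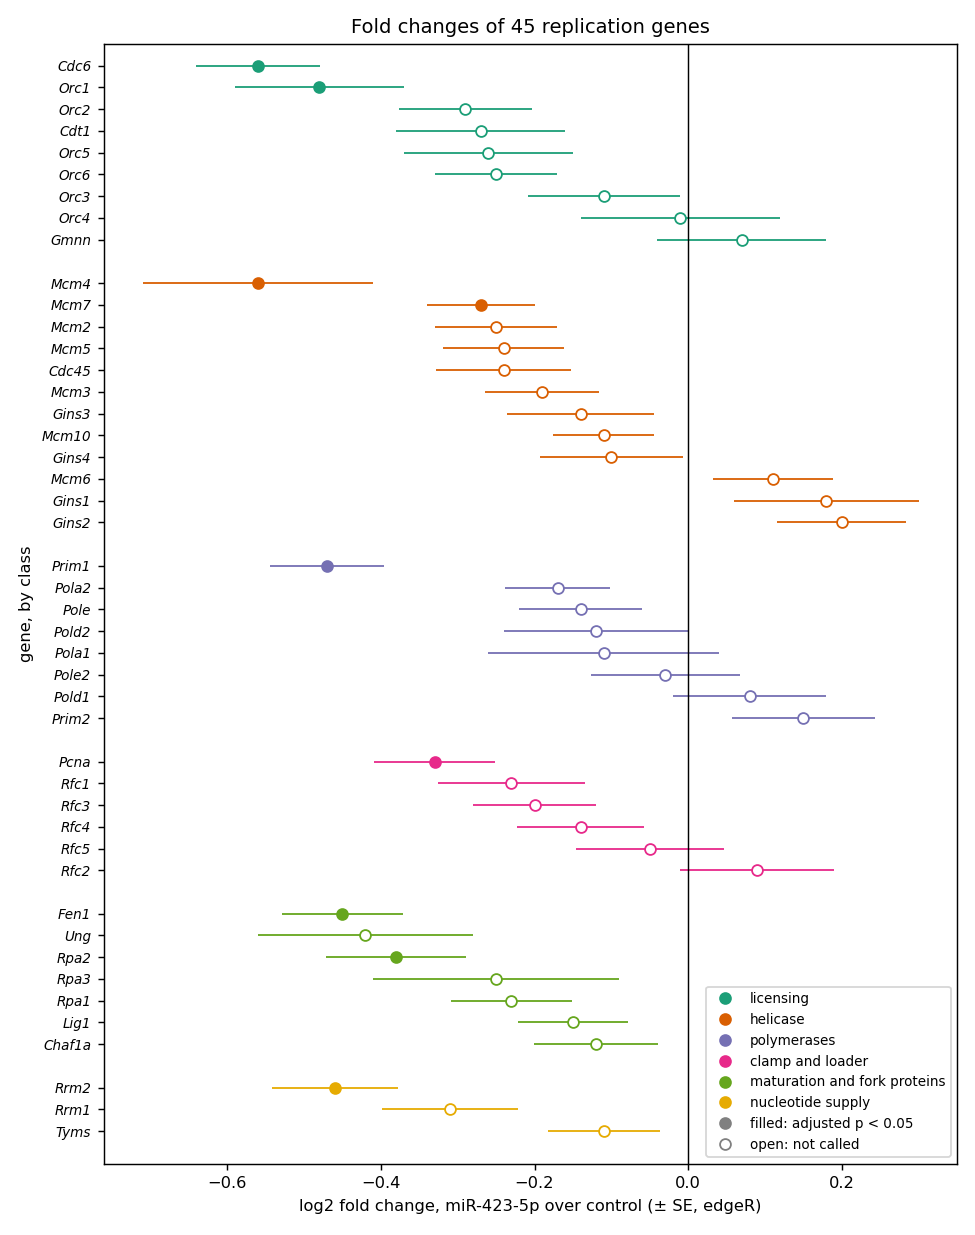
Log2 fold change (x axis, miR-423-5p over control, ± SE from edgeR) of the 45 replication genes (y axis), coloured by class; filled points passed the adjusted threshold. The 9 filled points are spread over all 6 classes, and 7 open points lie above 0.

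Of 12 helicase genes 2 fell, Mcm4 and Mcm7, and the class median was -0.16. Mcm4, a subunit of the catalytic core of the ring, lies at chr16:15623897-15637400 on the minus strand. It stood at 139.8, 145 and 149 CPM in the controls and at 83.4, 125 and 86.9 CPM in the miR-423-5p libraries. miR-423-5p 2 lay between the other 2 libraries of its group and the controls. The log2 fold change was -0.56 ± 0.15 (SE; edgeR adjusted p = 0.0453), and -0.45 with an adjusted p of 0.136 without miR-423-5p 1. Only the fit without miR-423-5p 2, among those that left out 1 library, still called it (-0.75, edgeR adjusted p = 0.00212).

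Mcm7, another core subunit, whose introns host the microRNAs of the miR-106b cluster, lies at chr5:138164583-138172422 on the minus strand. It stood at 379, 356 and 386 CPM in the controls and at 312, 313 and 306 CPM in the miR-423-5p libraries, with no overlap. Its log2 fold change was -0.27 ± 0.07 (SE; edgeR adjusted p = 0.04), and the call held when miR-423-5p 2 was left out but for no other single library.

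The ring is a complex of 6 different proteins, and the log2 fold changes of its transcripts ran from -0.56 to 0.11. Mcm2, Mcm5 and Mcm3 had log2 fold changes of -0.25, -0.24 and -0.19 (edgeR adjusted p = 0.0661, 0.0752 and 0.128), each with no overlap between the groups. Mcm6 was the ring gene without a negative value, at 399.6, 424 and 382 CPM in the controls and 426, 458 and 418 CPM in the miR-423-5p libraries (log2 fold change 0.11 ± 0.078 SE, edgeR adjusted p = 0.37; -0.05 with total-count scaling). The FPKM ratio of Mcm4 to Mcm6 was 0.455, 0.446 and 0.508 in the controls and 0.254, 0.356 and 0.27 in the miR-423-5p libraries.

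The partners that turn the ring into a helicase were not called. Cdc45 was at 57.9 ± 1.11 CPM in the controls and 49.2 ± 4.49 CPM in the miR-423-5p cells (SD, n = 3; edgeR adjusted p = 0.11), with no overlap. Mcm10, which acts when the helicase starts to move, was at 104 ± 2.28 and 96.2 ± 2.73 CPM, also with no overlap (log2 fold change -0.11, edgeR adjusted p = 0.276).

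None of the 4 GINS genes was called, and Gins2 had the smallest p (unadjusted p = 0.0477 in edgeR). It stood at 71, 67 and 76.2 CPM in the controls and at 86.7, 76.2 and 82.9 CPM in the miR-423-5p libraries, with control 3 and miR-423-5p 2 at the same rounded level (log2 fold change 0.20 ± 0.084 SE, edgeR adjusted p = 0.149). Gins1 also had a positive value (0.18, edgeR adjusted p = 0.332), while Gins3 (-0.14) and Gins4 (-0.10) had negative ones. The FPKM ratio of Gins4 to Gins2 was 1.88 ± 0.217 in the controls and 1.52 ± 0.0337 after the miR-423-5p mimic (SD, n = 3). In Gins2, 67.3% of the exonic bases over all annotated isoforms are shared with exons of Gse1 on the other strand. Gse1 had 14.4 and 15.7 CPM in the 2 groups (log2 fold change 0.12, edgeR adjusted p = 0.714).

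Among the 8 polymerase and primase genes 1 fell, Prim1, which encodes the catalytic subunit of primase, and the class median was -0.11. Prim1 lies at chr10:128015168-128030037 on the plus strand. It stood at 128, 122 and 115 CPM in the controls and at 84.2, 89.4 and 88.8 CPM in the miR-423-5p libraries, which do not overlap. Its log2 fold change was -0.47 ± 0.074 (SE; edgeR adjusted p = 0.00642).

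Prim2, the large subunit that joins primase to polymerase alpha, was not called. It stood at 25.7, 26.9 and 23.7 CPM in the controls and at 28.5, 28.2 and 28.1 CPM in the miR-423-5p libraries, all of them higher (log2 fold change 0.15 ± 0.093 SE, edgeR adjusted p = 0.294; -0.01 with total-count scaling). The FPKM ratio of Prim1 to Prim2 was 7.66, 6.98 and 7.43 in the controls and 4.54, 4.86 and 4.86 in the miR-423-5p libraries.

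The polymerases themselves moved little. Pold1, the catalytic subunit of polymerase delta, stood at 242, 246 and 226 CPM in the controls and at 288, 226 and 243 CPM in the miR-423-5p libraries, which overlap (log2 fold change 0.08 ± 0.1 SE, edgeR adjusted p = 0.608; -0.07 with total-count scaling). Its partner Pold2 had a log2 fold change of -0.12 (edgeR adjusted p = 0.532). Pole, the catalytic subunit of polymerase epsilon, had -0.14 and Pole2 -0.03, and both overlapped. In polymerase alpha, Pola2 had -0.17 with no overlap (edgeR adjusted p = 0.124). Pola1 ranged from 41.7 to 64.6 CPM within the miR-423-5p libraries, around its 57.9 ± 4.22 CPM in the controls (SD, n = 3).

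Of the 6 genes of the clamp and its loader 1 fell, Pcna, and the class median was -0.17. PCNA is the ring that tethers polymerases to DNA, and its gene lies at chr2:132249162-132253314 on the minus strand. Pcna had the highest FPKM of the 45 in the controls, 154 ± 13.9 (SD, n = 3). It stood at 374, 346 and 396 CPM in the controls and at 284, 298 and 304 CPM in the miR-423-5p libraries, with no overlap. The log2 fold change was -0.33 ± 0.079 (SE; edgeR adjusted p = 0.0289), with an adjusted p of 0.05 or higher when any 1 library other than miR-423-5p 2 was left out.

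None of the 5 subunits of replication factor C, which opens the clamp and loads it, was called. Rfc1 (-0.23), Rfc3 (-0.20) and Rfc4 (-0.14) had no overlap between the groups, while Rfc5 (-0.05) overlapped. Of these 5, 2 had an unadjusted p under 0.05 in edgeR, against 5922 of all 18103 tested genes. Rfc2 stood at 158, 144 and 161 CPM in the controls and at 179, 142 and 170.2 CPM in the miR-423-5p libraries, which overlap (log2 fold change 0.09 ± 0.1 SE, edgeR adjusted p = 0.603; -0.07 with total-count scaling). The FPKM ratio of Pcna to Rfc2 was 6.34 ± 0.12 in the controls and 4.79 ± 0.677 after the miR-423-5p mimic (SD, n = 3). Rfc2, Rfc4 and Rfc5 share 15.1%, 12.7% and 10.7% of their exonic bases with genes on the other strand that were themselves called, Lat2 (12.2 to 34.5 CPM), Eif4a2 (231 to 152 CPM) and Wsb2 (154 to 262 CPM).

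**Figure D4:**
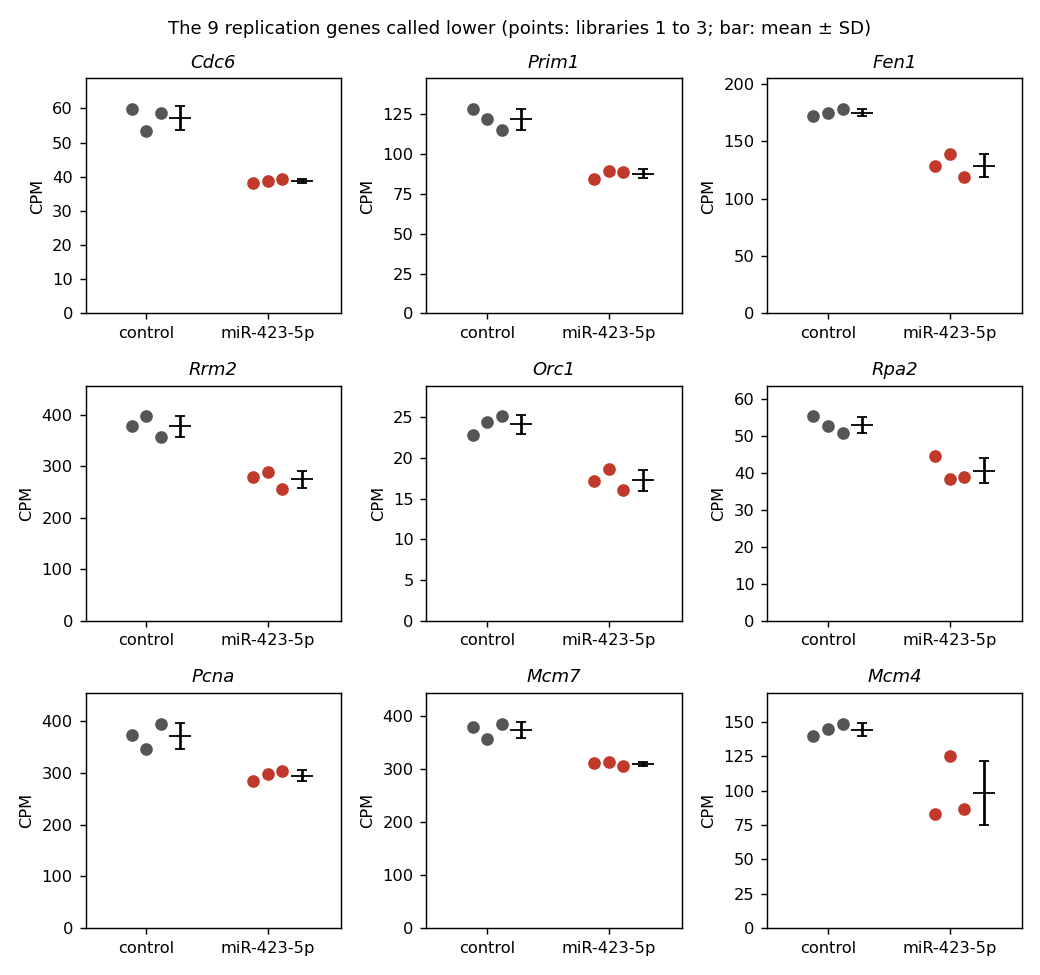
CPM (y axis, from 0) of the 9 replication genes called lower, in the 3 control and 3 miR-423-5p libraries (points, libraries 1 to 3 from left to right), with the group mean ± SD. In no panel do the groups overlap, and Mcm4 shows the widest spread for its mean, from 83.4 to 125 CPM in the miR-423-5p libraries.

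Of 7 genes for lagging-strand maturation, single-stranded DNA binding and related fork work, 2 fell, Fen1 and Rpa2, and all 7 had a log2 fold change below 0 (median -0.25). Fen1, the nuclease that trims the flaps of Okazaki fragments, lies at chr19:10199132-10204169 on the minus strand. It stood at 172, 175 and 178 CPM in the controls and at 128, 139 and 119 CPM in the miR-423-5p libraries, with no overlap. The log2 fold change was -0.45 ± 0.079 (SE; edgeR adjusted p = 0.0103). Leaving out control 2 or miR-423-5p 3 ended the call, with adjusted p of 0.0568 and 0.0581. The antisense gene Gm10143 covers 78.8% of the exonic bases of Fen1. It had 15.9 CPM in the controls and 8.87 CPM in the miR-423-5p cells (edgeR adjusted p = 0.187), so reads of the pair may not be told apart.

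Rpa2, the middle subunit of the protein that coats single-stranded DNA, lies at chr4:132768332-132778752 on the plus strand. It stood at 55.3, 52.7 and 50.8 CPM in the controls and at 44.5, 38.4 and 39 CPM in the miR-423-5p libraries. The groups did not overlap (log2 fold change -0.38 ± 0.091 SE, edgeR adjusted p = 0.0288). The call held when miR-423-5p 1 was left out (adjusted p = 0.0332) but for no other single library. Its partners Rpa1 (-0.23, edgeR adjusted p = 0.0865) and Rpa3 (-0.25, edgeR adjusted p = 0.328) were not called, and Rpa3 varied most among the controls, at 20.9, 17.5 and 13.4 CPM.

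Ung, the uracil-DNA glycosylase that removes misincorporated uracil, was not called (log2 fold change -0.42 ± 0.14 SE, edgeR adjusted p = 0.0813). It stood at 24.7 ± 3.07 CPM in the controls and 18.5 ± 2.28 CPM in the miR-423-5p cells (SD, n = 3), with no overlap. Lig1, the ligase that seals Okazaki fragments, had -0.15 and no overlap. Chaf1a, the large subunit of the histone chaperone CAF-1, had -0.12 and overlapped. In Chaf1a, 52.5% of the exonic bases lie in exons of Ubxn6 on the other strand, which rose from 23.5 to 34.9 CPM (edgeR adjusted p = 0.0161).

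Nucleotide supply is represented by 3 genes, all with a log2 fold change below 0 and with no overlap, of which Rrm2 fell. Over all tested genes 7.21% fell and 38.4% had no overlap in either direction. Rrm2, the small subunit of ribonucleotide reductase that is limiting for deoxynucleotide synthesis in S phase, lies at chr12:24708241-24714146 on the plus strand. It stood at 379, 397 and 356 CPM in the controls and at 279.8, 288 and 256 CPM in the miR-423-5p libraries. Its log2 fold change was -0.46 ± 0.082 (SE; edgeR adjusted p = 0.011). Leaving out control 1, control 2 or miR-423-5p 3 ended the call, with adjusted p of 0.054, 0.065 and 0.0618. Rrm1, the large subunit, stood at 578, 615 and 566 CPM and at 485, 505 and 427 CPM (log2 fold change -0.31 ± 0.089 SE, edgeR adjusted p = 0.0512). The FPKM ratio of Rrm2 to Rrm1 was 2.55 ± 0.053 in the controls and 2.31 ± 0.0592 after the miR-423-5p mimic (SD, n = 3). Tyms, thymidylate synthase, was not called (edgeR adjusted p = 0.345), with 101 ± 2.28 CPM in the controls and 93.3 ± 5.38 CPM after the mimic (SD, n = 3).

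Among the 45, levels per length spanned a wide range. In the controls Pcna, Mcm3 and Rrm2 were highest, at 154, 140.3 and 135 FPKM, and Prim2, Ung and Orc4 lowest, at 4.23, 4.45 and 4.86 FPKM. The 9 genes that fell ran from Orc1 at 6.85 FPKM to Pcna. Among the 8536 tested genes at or above the lowest mean CPM of the 45, 8.31% fell.

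Promoters were compared because many replication genes are regulated through E2F sites. RefSeq promoters of GRCm38, from 250 bases before to 50 after the start, were on hand for 37 of the 45 genes. Mcm4, Gmnn, Gins1, Gins2, Gins4, Prim2, Pole and Rfc2 had no entry. The 8-letter E2F forms TTTCCCGC, TTTCGCGC, TTTGCCGC and TTTGGCGC were searched on both strands. At least 1 was present in 14 of 37 genes (37.8%), against 4.29% of 11914 tested genes and 2.26% of all promoters. The same forms without the first T, a choice made after the data were seen and one that includes every 8-letter match, were present in 24 of 37 (64.9%), against 18.2% of tested genes and 9.57% of promoters. CCAAT, whose reverse complement ATTGG can overlap TTGGCGC, was present in 24 of 37 genes (64.9%), against 43.1% of tested genes and 37.4% of promoters. Base composition was not matched.

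Medians of genes with and without a motif are given as a description, with no test. The median log2 fold change was -0.21 with a 7-letter E2F form and -0.24 without one, -0.17 and -0.25 with and without an 8-letter form, and -0.24 and -0.15 with and without CCAAT. Of the 8 genes called lower that have a promoter entry, 3 hold an 8-letter form, 7 a 7-letter form (all but Pcna) and 6 CCAAT. The stretches around these forms are shown for 5 of them, 5' to 3' on the gene's strand with the 7-letter form in capitals, since they are the called genes with the smallest p.

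Cdc6, chr11:98907983-98908049, plus strand: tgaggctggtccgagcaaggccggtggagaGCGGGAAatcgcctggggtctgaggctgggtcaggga
Prim1, chr10:128015170-128015236, plus strand: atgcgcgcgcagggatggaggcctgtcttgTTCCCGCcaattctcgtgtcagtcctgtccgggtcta
Orc1, chr4:108579397-108579463, plus strand: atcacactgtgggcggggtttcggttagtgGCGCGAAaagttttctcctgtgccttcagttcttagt
Fen1, chr19:10203919-10203985, minus strand: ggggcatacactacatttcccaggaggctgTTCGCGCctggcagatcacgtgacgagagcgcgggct
Rrm2, chr12:24708004-24708055, plus strand: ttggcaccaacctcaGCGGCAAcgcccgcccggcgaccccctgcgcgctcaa

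In Prim1 and Fen1 the form reads along the gene's strand, and in Cdc6, Orc1 and Rrm2 the reverse complement is seen. A match is a run of letters and not a measured binding site. The promoters are set by RefSeq starts, which can differ from the gene starts of the deposited table. By the table's coordinates the capitals of Cdc6, Prim1, Orc1 and Fen1 lie inside the gene, and those of Rrm2 lie before it. Fen1 has another RefSeq promoter entry, chr19:10204344-10204643, that holds no 7-letter form.

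Outside the 45, 44 other replication genes were tested, of which 14 fell and 1 rose, with a median log2 fold change of -0.23. The 14 are 31.8% of the 44. Of all tested genes 7.21% fell and 9.09% rose, with a median of -0.02. The 8 with the smallest p follow. Ticrr, which brings Cdc45 to the Mcm ring, stood at 68, 68.3 and 72.2 CPM in the controls and at 39.9, 41.6 and 39.7 CPM in the miR-423-5p libraries, a 1.72-fold decrease (edgeR adjusted p = 0.00113). The checkpoint mediator Clspn fell 1.62-fold, the fork protein Wdhd1 1.5-fold and Tipin, a partner of Timeless, 1.31-fold. The nuclease genes Dna2 and Exo1 fell 2.39-fold and 1.52-fold, the dUTPase gene Dut 1.57-fold and the PCNA-binding factor gene Pclaf 1.59-fold. Pold4, the small accessory subunit of polymerase delta, was the 1 gene that rose (edgeR adjusted p = 0.0449), with 17.8 ± 1.31 CPM in the controls and 25.5 ± 4.09 CPM after the mimic (SD, n = 3). None of the 44 was called higher with total-count scaling, or when any 1 library other than miR-423-5p 2 was left out. Of the 44, 12 fell when control 3 was left out, 5 when it was control 1, control 2 or the third miR-423-5p library, 9 when it was the first and 17 when it was the second. Of all tested genes, 4.67% fell without control 3. The share was 2.24%, 1.98% and 2.56% without control 1, control 2 and the third miR-423-5p library. It was 3.16% without the first and 9.68% without the second. With total-count scaling 23 of the 44 fell, against 14.2% of all tested genes.

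Genes on lists for cyclin E and E2F and for mitosis also differed in part. Among the 10 cyclin E and E2F genes not called were E2f1, Cdk2 and E2f2. Their log2 fold changes were 0.11, -0.13 and -0.21 (edgeR adjusted p = 0.526, 0.423 and 0.395). Of 17 cyclin E and E2F genes 7 fell and none rose (10 had an unadjusted p under 0.05 in edgeR, and DESeq2 called 7 lower and none higher), with Ccne1 at 64.6 ± 3.53 and 24.8 ± 1.88 CPM, Tfdp1 at 113 ± 6.78 and 43.4 ± 5.77, Ccne2 at 13.2 ± 1.6 and 6.51 ± 1.38 and E2f7 at 49.3 ± 1.55 and 33.6 ± 2.1 in control and miR-423-5p cells (SD, n = 3). Of 17 mitosis genes 6 fell and none rose (8 had an unadjusted p under 0.05 in edgeR, all with a log2 fold change below 0, and DESeq2 called none higher), and the median log2 fold change was -0.20, close to the -0.19 of the replication genes. Mki67, a marker of cycling cells, fell (edgeR adjusted p = 0.0309); its level was 573 ± 67.5 CPM in the controls and 427 ± 24.5 CPM after the mimic (SD, n = 3). When control 3 was left out, 5 of the cyclin E and E2F genes and 1 of the mitosis genes fell. The numbers were 3 and 0 when control 1, control 2 or the third miR-423-5p library was left out, 4 and 2 for the first, 7 and 7 for the second, and 10 and 13 with total-count scaling. These counts are of 17 genes each and are to be read against the shares of all tested genes given above for the same fits, such as 4.67% when control 3 was left out.

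**Figure D5:**
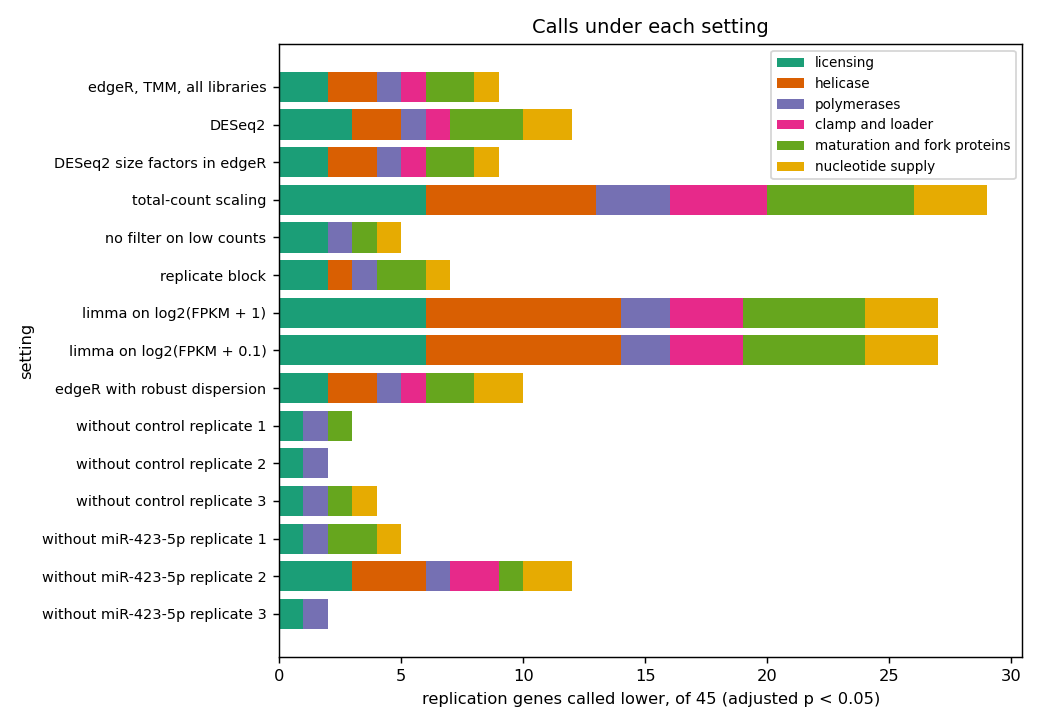
Number of the 45 replication genes called lower (x axis) under each setting (y axis), coloured by class. The bars run from 2 genes without control 2 or miR-423-5p 3 to 29 with total-count scaling, and every bar holds licensing and polymerase genes.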

How the data were processed

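Per the labels' protocols, polyadenylated RNA of 6 libraries was prepared with dUTP, which keeps the strand, and read from both ends. One table was deposited; it gives a whole-number count and an FPKM per gene and library, per the file headers. Per the submitters' processing notes, which state no roles, cutadapt 1.9, HISAT2 2.2.1, StringTie 2.1.6, DESeq2, edgeR and the build GRCm38 were involved. Annotation release, counting method and strand setting: not given in the sources used here.

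The main test was the quasi-likelihood test of edgeR 4.0.16 in R 4.3.3, after filterByExpr and TMM scaling, with group as the one term, over all genes, at an adjusted threshold of 0.05. SE is the log2 fold change over the square root of F. Alternatives used DESeq2 1.42.0, limma 3.58.1 on log2(FPKM + 1) and log2(FPKM + 0.1), other scalings, no filter, robust dispersion, a replicate block and leaving out each library. The floor for a gene with no reads, set at 3 counts, is 0.0396 to 0.0508 CPM across libraries, on the TMM scale, and covers counting error only.

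On simulated counts for this comparison, the test, run on 17555 genes, called 61.9% of those changed 2-fold and 77.9% of those changed 4-fold, and 4.29% of calls were false. The changed genes were drawn at random from the tested genes. Smaller changes, such as those of the 9 genes called lower, were not simulated, so these rates do not apply to them. Every pair of libraries differed by more than sampling noise. 3' UTRs and exon overlaps came from GENCODE M21 (GRCm38), in which all 45 genes were found by identifier and 37 had the table's start and end. miRNA and promoter sequences came from RefSeq (GRCm38.p6).

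The 45 genes, the other lists (replication, cyclin E and E2F, mitosis, cell type markers), the motifs and the rule for named genes were chosen with earlier results of these data known. By that rule every member is named, and per-library values are given for those called and up to 3 per class; values of further members were added after they were seen.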

Additional observations from a re-analysis of the deposited data

How the results depend on the processing

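Of the 45 genes, 9 fell with all libraries, where 7.21% of all tested genes fell. With a replicate block 7 fell (5.76% of all tested genes). With no filter on low counts 5 fell (2.47%, of 30768 genes), and with total-count scaling 29 (14.2%). With limma on FPKM 27 fell at either pseudocount (13.2% of all tested genes at 1 and 13.6% at 0.1). Leaving out 1 library gave 2 to 12 of the 45, where 1.98% to 9.68% of all tested genes fell. The median log2 fold change was -0.34 with total-count scaling and -0.36 and -0.37 with limma at pseudocounts of 1 and 0.1. Over all genes, 1305 fell and 1646 rose; the numbers were 2569 and 874 with total-count scaling, 759 and 1093 with no filter, 2389 and 770 or 2459 and 767 with limma at pseudocounts of 1 or 0.1, and 372 to 1836 and 570 to 2386 with 1 library left out. Of the other replication genes, 23 fell with total-count scaling, 24 with limma at either pseudocount and 5 to 17 with 1 library left out; none rose with total-count scaling, no filter or limma, where edgeR with all libraries called 1, and 0 to 5 rose with 1 library left out.

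Some genes that were not called changed sign. With total-count scaling, limma at a pseudocount of 1 and limma at 0.1, log2 fold changes were -0.09, -0.12 and -0.12 for Gmnn, -0.05, -0.07 and -0.07 for Mcm6, -0.01, -0.02 and -0.03 for Prim2, -0.07, -0.10 and -0.10 for Pold1 and -0.07, -0.10 and -0.10 for Rfc2. Gins1 had -0.003 and -0.004 with limma. With 1 library left out the ranges were -0.13 to 0.06 for Orc4, -0.02 to 0.17 for Gmnn, -0.25 to 0.05 for Pola1, -0.02 to 0.18 for Pold1, -0.18 to 0.02 for Pold2, -0.11 to 0.02 for Pole2 and -0.12 to 0.04 for Rfc5. The median over all genes moved as well, from -0.02 with TMM scaling to -0.18 with total-count scaling. It was -0.09 and -0.18 with limma at pseudocounts of 1 and 0.1, on FPKM values that are not TMM-scaled. Beyond these shifts of all genes the cause was not tested. Leaving out any single library leaves fewer samples, but the numbers of calls did not all move the same way. Without miR-423-5p 2, 1836 of all tested genes fell and 2386 rose, against 1305 and 1646 with all libraries. Without any other single library, 372 to 868 fell and 570 to 1150 rose. The part of the sample number in these changes was not tested.

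No label says whether libraries with the same replicate number were paired. The deviations of same-numbered libraries correlated at 0.118, -0.031 and 0.114 over 13477 genes. Those of differently numbered libraries ran from -0.155 to 0.12, so these values do not settle whether libraries were paired. Under the block Mcm7 and Pcna were no longer called and no other call among the 45 changed.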
